A study of Sus scrofa with 40 samples.

Results

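MMP7, LOXL1 and TIMP2 are 3 genes whose products cut, crosslink or protect the matrix around cells, and their levels were followed in cultured coronary endothelial cells of pigs. They were chosen because each was higher in regenerated than in native cells of control animals, so their values in that contrast are given as a description with no test. Each was measured by 1 probe set, found by its gene symbol or full gene title in the authors' deposited tables: Ssc.548.1.S1_a_at for MMP7, Ssc.11257.1.S1_at for TIMP2 and Ssc.10137.1.A1_at for LOXL1, which the tables list as LOC100154899, similar to lysyl oxidase-like 1. They are 3 of 2459 genes that the tables name by a single symbol, and all 3 passed the filter on low values.

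MMP7 (matrilysin) is a small secreted protease that cleaves proteoglycans, laminin, fibronectin and elastin, and it is best known from epithelial cells. LOXL1 belongs to the lysyl oxidases, copper enzymes that oxidise lysine side chains so that collagen and elastin can be crosslinked, and in mice it is needed to renew elastic fibres. TIMP2 is a tissue inhibitor of metalloproteinases, which blocks the active site of these proteases and also takes part in the activation of pro-MMP2 at the cell surface. In the artery wall the balance of such proteases, inhibitors and crosslinkers sets how the basement membrane and the elastic layers under the endothelium are kept up.

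The 40 arrays came from 20 female farm pigs aged 4 months, with cells scraped from 2 arteries of each heart: native cells from the left circumflex and regenerated cells from the left anterior descending artery, where its lining had been stripped earlier. There were 8 control pairs, 6 pairs from animals fed a high cholesterol diet (CHL) and 6 from animals on a diet rich in polyunsaturated fatty acids, called fish oil-rich in the title (FO), and the study's question was how regenerated cells differ from native ones within each diet. All cultures grew for 10 days on collagen-coated dishes and were used at passage 0, and the time between denudation and harvest is not given in the sources used here. Since each cell state has its own artery throughout, artery and regeneration cannot be told apart, and the cultures are tied to animals by the titles' pair numbers and the labels alone. A level below is log2(signal + 16), where signal is the deposited array intensity, and a difference is regenerated minus native on that scale.

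Some arrays need to be known before the results. The 2 regenerated arrays of control animal 6 and FO animal 3 had degraded RNA, with actin 3'/5' signal ratios of 263.5 and 422.1 against 1.33 to 6.89 on the other 38 arrays. In 3 pairs the 2 arrays did not deviate together from their group means: their deviations correlated at -0.118 in control animal 4, -0.0303 in control animal 5 and -0.225 in FO animal 6, against a median of 0.514 over all pairs. The regenerated arrays of control animals 5 and 4 had the highest actin ratios of those 38, 6.89 and 4.48. Their native arrays were at 1.43 and 1.39. In FO animal 6 the regenerated array was at 3.57 and the native one at 3.05. For FO animal 6 the labels carry 2 different animal numbers. In the control pairs labelled with MA numbers, native and regenerated arrays also carry different numbers, so these pairs rest on the replicate numbers of the titles, and whether the arrays of the 3 uncorrelated pairs came from 1 animal could not be settled. The differences of the 3 genes and their relations are given with and without these pairs. Of 15 endothelial markers 12 were measured. PECAM1, CDH5, NOS3, VWF and 6 others were above the filter level, KDR and ERG were not, and their summed signal ran from 16450 to 33620 over all arrays.

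MMP7 varied widely between animals. In native cells its level lay between 4.33 and 8.44 with a median of 6.32 in controls, between 5.31 and 8.17 with a median of 6.31 in CHL animals, and between 4.23 and 8.15 with a median of 6.75 in FO animals. In regenerated cells it lay between 6.95 and 9.92 (median 8.06) in controls, between 4.50 and 8.81 (median 7.75) in CHL animals, and between 7.27 and 9.16 (median 7.84) in FO animals. All 6 FO and all 8 control cultures of regenerated cells were thus at 6.95 or above, while native cells and the regenerated CHL cells also held arrays near the lower end of the scale, and the ranges of all 6 groups overlapped. On the signal scale the lowest arrays were a native FO culture at 2.73 and a native control culture at 4.14, and 3 of 40 arrays were at or below the filter level of 5.08.

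LOXL1 was measured above the filter level on every array. Its native level ran from 9.20 to 11.96 (median 9.86) in controls, from 9.59 to 12.16 (median 10.87) in CHL animals and from 9.66 to 10.93 (median 10.48) in FO animals. Its regenerated level ran from 9.48 to 12.14 (median 11.50) in controls, from 8.54 to 11.58 (median 11.24) in CHL animals and from 9.64 to 11.77 (median 10.91) in FO animals. The groups overlapped throughout, and 1 regenerated CHL culture, that of animal 1, was lower than all 39 other arrays.

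TIMP2 had the smallest SD of the 3 genes in each of the 6 groups. Its native level ran from 11.04 to 12.95 (median 11.80) in controls, from 11.92 to 12.76 (median 12.10) in CHL animals and from 11.74 to 12.89 (median 12.30) in FO animals. Its regenerated level ran from 11.14 to 13.29 (median 12.59) in controls, from 11.46 to 12.96 (median 12.23) in CHL animals and from 12.09 to 13.48 (median 12.60) in FO animals. The groups overlapped here too, and the lowest native and regenerated values were those of control cultures.

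**Figure D1:**
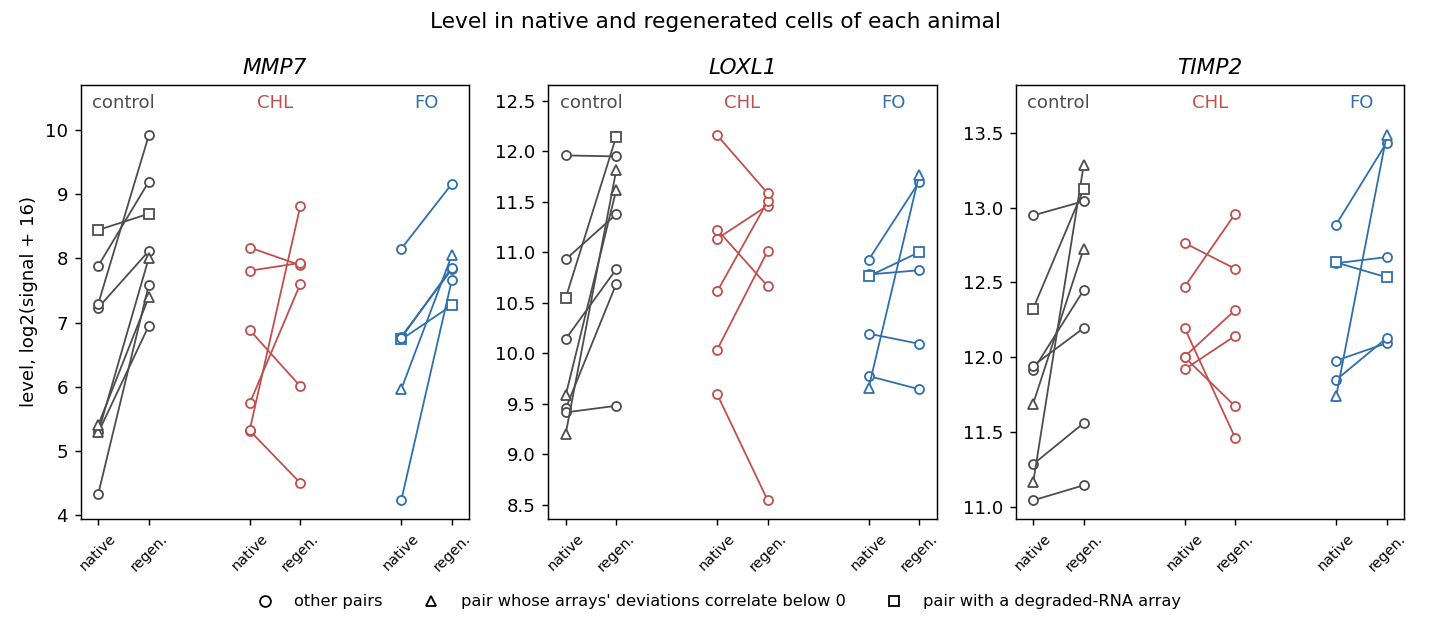
Level of each gene, log2(signal + 16), in native and regenerated cells of each animal, with a line joining the arrays of 1 animal; triangles are the 3 pairs whose arrays' deviations correlate below 0 and squares the 2 pairs with a degraded-RNA array. The MMP7 lines climb in all 8 control and all 6 FO animals, while those of the 6 CHL animals run in both directions for each gene.

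Ranked by mean level, regenerated control cells were at or near the top and native control cells at the bottom. This follows in part from the choice of the genes on the contrast of these groups. For MMP7 the order from low to high was native control at 6.40 ± 1.49 (SD, n = 8), native FO at 6.44 ± 1.29 (n = 6), native CHL at 6.54 ± 1.26 (n = 6), regenerated CHL at 7.12 ± 1.58 (n = 6), regenerated FO at 7.97 ± 0.64 (n = 6) and regenerated control at 8.23 ± 0.99 (n = 8). LOXL1 had the same order, from 10.15 ± 0.95 (n = 8) to 11.24 ± 0.88 (n = 8), with native and regenerated CHL cells both at 10.79. For TIMP2 native control cells were again lowest at 11.79 ± 0.64 (n = 8), and regenerated FO cells were highest at 12.72 ± 0.61 (n = 6). No 2 neighbours in any of these orders differed by more than the larger of their SDs.

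Within control pairs, the contrast on which the genes were chosen, MMP7 was higher in regenerated cells of 8 of 8 animals by 0.25 to 3.26, with a mean of 1.84 ± 1.01 (SD, n = 8), or 3.57-fold on the log2(signal + 16) scale. LOXL1 was higher in 7 of 8 animals, with a mean of 1.08 ± 0.95 (n = 8), or 2.12-fold, and in the eighth it was level at -0.01. TIMP2 was higher in 8 of 8, with a mean of 0.65 ± 0.68 (n = 8), or 1.57-fold. Of all 17999 probe sets tested, 1.51% were higher in every control pair. LOXL1 and TIMP2 drew much of their means from the pairs of animals 4 and 5: without them the means were 0.67 ± 0.64 (n = 6) and 0.34 ± 0.28 (n = 6), over 1.5 times smaller for both, while that of MMP7 was 1.66 ± 1.11 (n = 6). The FO arrays did not enter this contrast, so it was tested there, although the genes were chosen with results of all these data known. The 3 genes also had to be named in the authors' tables of probe sets selected on these data. All probe sets are thus an unlike background for them.

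In FO pairs MMP7 was higher in regenerated cells of 6 of 6 animals. The 6 differences were 3.43 in animal 1, 1.05 in animal 2, 0.53 in animal 3, 1.01 in animal 4, 1.09 in animal 5 and 2.09 in animal 6. Their mean was 1.53 with an SE of 0.48 from the fit and a 95% interval of 0.54 to 2.53, or 2.90-fold. The exact two-sided sign-flip test gave p = 0.03125, the smallest that 6 pairs allow, and 1.98% of probe sets were higher in every FO pair. Across all probe sets the difference did not pass Benjamini-Hochberg adjustment in limma (unadjusted p = 0.00423, adjusted p = 0.392, rank 194 of 17999), where 8.66% of probe sets had an unadjusted p under 0.05. The mean was 1.42 without FO animal 6 and 1.73 without animal 3, the pair with degraded RNA, and either time the exact sign-flip p was 0.0625, the smallest that 5 pairs allow. Without FO animal 1, whose native level of 4.23 was below the filter level of 5.08, the mean was 1.16. No other animal left out gave a lower mean. The largest control difference, 3.26 in control animal 1, also came from a native level below the filter level, 4.33.

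Like MMP7, LOXL1 and TIMP2 did not pass Benjamini-Hochberg adjustment in limma in FO pairs. LOXL1 was higher in 4 of 6 animals, between -0.13 and 2.11 with a median of 0.14 and a mean of 0.49 (SE 0.34, 95% interval -0.22 to 1.19, limma adjusted p = 0.665, exact sign-flip p = 0.21875). TIMP2 was higher in 5 of 6, between -0.10 and 1.75 with a median of 0.20 and a mean of 0.44 (SE 0.24, 95% interval -0.07 to 0.95, limma adjusted p = 0.604, exact sign-flip p = 0.09375). Animal 6 was highest for both genes, and without it the means were 0.16 and 0.18 (exact sign-flip p = 0.4375 and 0.1875). Of 17999 probe sets 0% passed upward and 0.0389% downward in this contrast, so few genes of any kind passed here.

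In CHL pairs none of the 3 genes ran one way. MMP7 was higher in 3 of 6 animals and lower in the other 3. Its differences were -0.82 in animal 1, 1.86 in animal 2, 3.48 in animal 3, -0.87 in animal 4, -0.28 in animal 5 and 0.12 in animal 6, so the spread of 1.74 (SD, n = 6) was the widest of any gene and diet here. The mean of 0.58 (SE 0.48, 95% interval -0.41 to 1.58) did not pass (limma adjusted p = 0.888, exact sign-flip p = 0.5), and without animal 3 it was 0.003. LOXL1 was higher in 3 of 6, from -1.05 to 0.98 with a mean of 0.00 (SE 0.34, 95% interval -0.70 to 0.71, limma adjusted p = 0.9996, exact sign-flip p = 1.0). TIMP2 was higher in 3 of 6, from -0.73 to 0.49 with a mean of -0.03 (SE 0.24, 95% interval -0.54 to 0.47, limma adjusted p = 0.995, exact sign-flip p = 0.84375). In this contrast 0% of probe sets passed upward and 0.00556% downward, 6.36% had an unadjusted p under 0.05, and 3.03% were higher in every pair.

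**Figure D2:**
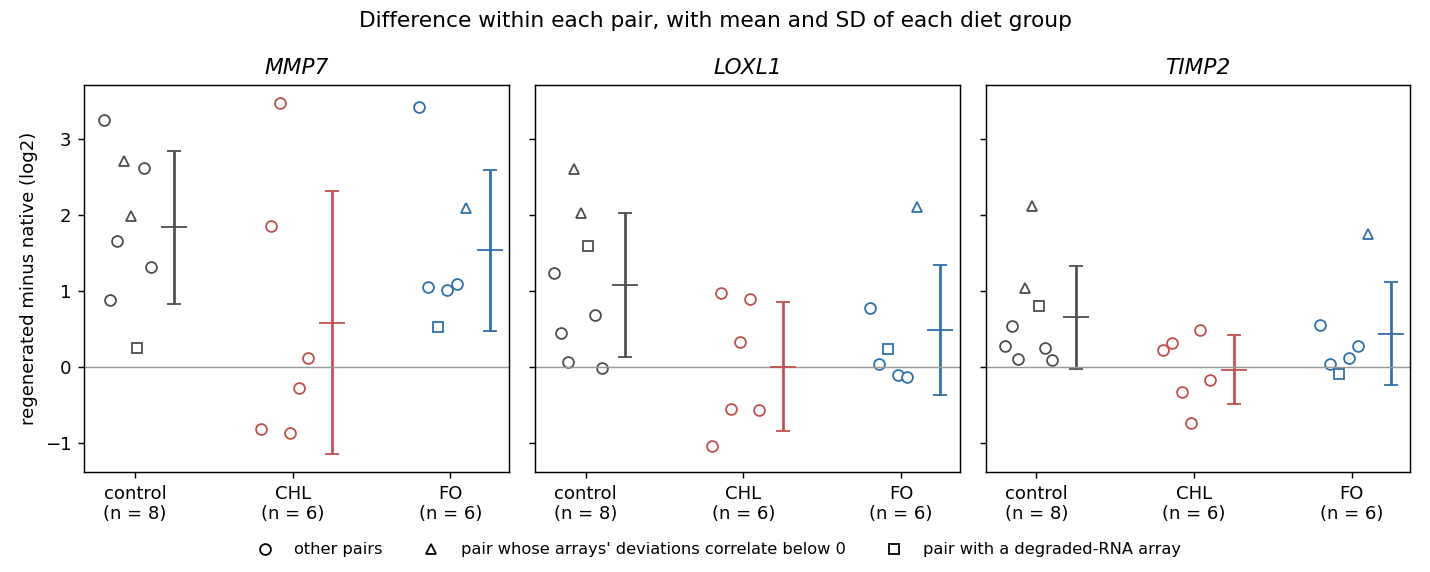
Regenerated minus native difference (log2) of each animal for the 3 genes, by diet, with the mean (long tick) and SD (bar) of each group at its right; triangles and squares mark the uncorrelated pairs and those with degraded RNA. The FO points of MMP7 lie between 0.53 and 3.43, all above 0, whereas CHL points lie on both sides of 0 for all 3 genes and the triangles are the highest points of LOXL1 and TIMP2.

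Whether the 2 diets differed in this effect was tested on the pairs that hold no control array. The regenerated effect of CHL minus that of FO was -0.95 for MMP7 (SE 0.68, 95% interval -2.36 to 0.45), -0.49 for LOXL1 (SE 0.48, 95% interval -1.48 to 0.51) and -0.47 for TIMP2 (SE 0.34, 95% interval -1.19 to 0.24). All 3 had a limma adjusted p of 0.999. The exact permutation tests of 6 against 6 pairs gave p = 0.2727 for MMP7, 0.3593 for LOXL1 and 0.1905 for TIMP2. So MMP7, higher in 6 of 6 FO pairs and 3 of 6 CHL pairs, was not shown to differ between the diets, and its interval spans both no difference and a lower effect in CHL pairs.

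The same holds when each cell state is taken alone. In native cells CHL minus FO was 0.11 for MMP7 (95% interval -1.38 to 1.60, exact permutation p = 0.8961, n = 6 and 6), 0.44 for LOXL1 (-0.48 to 1.37, p = 0.3312) and -0.06 for TIMP2 (-0.66 to 0.54, p = 0.8203). In regenerated cells it was -0.85 for MMP7 (95% interval -2.08 to 0.39, exact permutation p = 0.2662, n = 6 and 6), -0.04 for LOXL1 (-1.10 to 1.02, p = 0.9567) and -0.53 for TIMP2 (-1.29 to 0.22, p = 0.1494). No limma adjusted p was below 0.999, and 0% of 17999 probe sets passed in either state or in the difference of effects, with 1.36%, 2.23% and 1.96% at an unadjusted p under 0.05. Over all pairs or cultures 15 exact tests were made of the 3 genes, besides those with pairs left out, and their p were not adjusted for this number.

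Smooth muscle genes moved with 2 of the 3 genes. These cells lie next to the endothelium in the artery wall, and 8 of 16 smooth muscle markers were measured above the filter level, among them ACTA2 (smooth muscle actin), TAGLN (transgelin) and CNN1 (calponin), with none at 0 on any array. Their summed signal ran from 4534 to 43280 in native and from 5389 to 55090 in regenerated control cells, from 10940 to 34890 and 9425 to 36530 in CHL cells, and from 7060 to 30360 and 4840 to 49310 in FO cells. The mean of the 8 markers was higher in regenerated cells by 1.22 ± 1.05 in control pairs (SD, n = 8, higher in 6), by 0.63 ± 1.02 in FO pairs (n = 6, higher in 4) and by -0.04 ± 0.53 in CHL pairs (n = 6, higher in 2). Taken singly, 8 markers were higher on average in control pairs, 6 higher and 2 lower in FO pairs, and 4 higher and 4 lower in CHL pairs. In control pairs they ran from TPM2 at 0.40 to ACTA2 at 3.62 ± 3.09, with MYL9 next at 1.40, so ACTA2 weighs heavily in the mean. In bulk RNA, more cells of a type and more RNA per cell cannot be told apart.

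Across the 20 pairs, the difference of this marker mean went with that of TIMP2 (Pearson r = 0.876, Spearman rho = 0.729) and of LOXL1 (r = 0.829, rho = 0.743). For MMP7 r was 0.374 and rho 0.371. These values hold the control pairs on which the genes were chosen, so they are a description with no p. The 3 uncorrelated pairs had the 3 largest rises of the smooth muscle markers, of LOXL1 and of TIMP2, whereas they ranked 4, 6 and 7 for MMP7. Without them r was 0.657 for TIMP2, 0.670 for LOXL1 and 0.280 for MMP7, and rho was 0.559, 0.591 and 0.167. Without the 2 pairs farthest from the median marker difference r was 0.748, 0.774 and 0.365.

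Over the 12 CHL and FO pairs, which hold no control array, r with the marker mean was 0.804 for TIMP2, 0.720 for LOXL1 and 0.303 for MMP7 (permutation p = 0.0134, 0.025 and 0.362, Benjamini-Hochberg adjusted over 6 relations). The rank correlations of 0.573, 0.455 and 0.140 did not pass (adjusted permutation p = 0.167, 0.281 and 0.668). Both passing values rested on FO animal 6: over the 11 pairs without it r was 0.551 for TIMP2, 0.449 for LOXL1 and 0.211 for MMP7 (adjusted permutation p = 0.475, 0.498 and 0.563). Within diets r for TIMP2 was 0.822 over 6 FO pairs and 0.624 over 6 CHL pairs (adjusted exact p = 0.075 and 0.912), for LOXL1 it was 0.918 and 0.329 (0.0583 and 0.912), and for MMP7 0.657 and -0.289 (0.25 and 0.912). In control pairs, as a description, r was 0.927 for TIMP2, 0.865 for LOXL1 and 0.271 for MMP7 over 8 pairs and 0.707, 0.877 and 0.142 over the 6 without animals 4 and 5. All points share their arrays and scaling, and the part that other cells had in these differences was not tested.

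**Figure D3:**
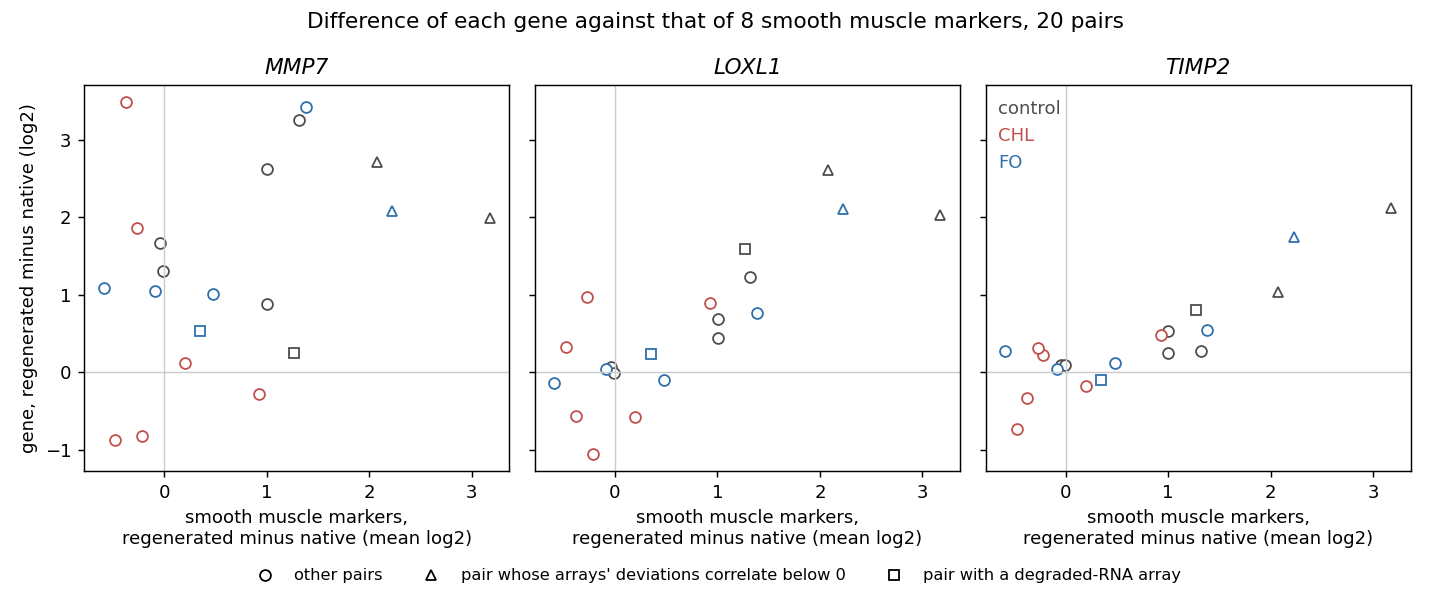
Regenerated minus native difference of each gene (log2) against the mean difference of 8 smooth muscle markers (log2) in 20 pairs, coloured by diet; triangles and squares mark the uncorrelated pairs and those with degraded RNA. TIMP2 (r = 0.876) and LOXL1 (r = 0.829) climb with the markers up to the 3 triangles, while MMP7 (r = 0.374) is spread from -0.87 to 3.48.

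LOXL1 and TIMP2 also went together. Over the 20 pairs their differences had r = 0.761 and rho = 0.762 with r = 0.693 without the 2 pairs farthest from the median of LOXL1 and r = 0.537 without the 3 uncorrelated pairs. Over the 12 CHL and FO pairs r was 0.702 and rho 0.573 (adjusted permutation p = 0.0319 and 0.167), and over the 11 without FO animal 6 they were 0.347 and 0.445 (adjusted permutation p = 0.563 and 0.521). Over the 6 FO pairs r was 0.943 while rho was 0.429 (adjusted exact p = 0.075 and 0.419), and over the 6 CHL pairs r was 0.281 (0.912). In control pairs r was 0.750 over 8 and 0.743 over the 6 without animals 4 and 5. MMP7 had r = 0.372 with LOXL1 and 0.287 with TIMP2 over the 20 pairs. Levels of LOXL1 and TIMP2 had r = 0.807 and rho = 0.815 over the 20 native cultures and r = 0.633 and rho = 0.798 over the 20 regenerated ones. Native MMP7 levels had r = 0.498 with LOXL1 and 0.463 with TIMP2, and regenerated ones r = 0.447 and 0.243.

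Markers of other cells were read in the same pairs. The mean of the 10 endothelial markers above the filter differed by -0.34 ± 0.42 in control (SD, n = 8), 0.06 ± 0.17 in CHL (n = 6) and -0.30 ± 0.35 in FO pairs (n = 6), and in the 3 uncorrelated pairs by -0.61, -0.87 and -0.65. Its genes went both ways: 3 were higher and 7 lower in control and in FO pairs, and 6 higher and 4 lower in CHL pairs. In control pairs they ran from ESAM at -1.54 to ENG at 1.02. The mean of the 7 fibroblast markers differed by 0.00 ± 0.84, -0.58 ± 0.60 and -0.37 ± 0.81 in control, CHL and FO pairs, and was higher in regenerated cells of all 3 uncorrelated pairs by 1.03 to 1.12. These genes also went opposite ways. In control pairs 3 were higher and 4 lower, from POSTN at -2.10 to FAP at 1.65. In CHL and in FO pairs 2 were higher and 5 lower, from POSTN at -2.69 and -3.58 to FAP at 0.93 and 1.57. The mean of the 3 adipocyte markers above the filter, PPARG, FABP4 and LPL, was higher in 7 of 8 control, 6 of 6 CHL and 6 of 6 FO pairs. It differed by 1.14, 0.63 and 1.14 on average. Taken singly, PPARG was higher in 7 of 8, 5 of 6 and 6 of 6 of these pairs. FABP4 was higher in 6 of 8, 4 of 6 and 6 of 6, and LPL in 7 of 8, 6 of 6 and 4 of 6. ADIPOQ and LEP, the genes of the fat cell hormones adiponectin and leptin, lay below the filter level. LEP was higher in 7 of 8 control, 4 of 6 CHL and 4 of 6 FO pairs by 1.10, 0.30 and 0.81 on average, and ADIPOQ in 5 of 8, 4 of 6 and 2 of 6 by -0.005, 0.18 and -0.09. Of 9 leukocyte markers 2 (CD14 and LYZ) and of 7 epithelial markers 1 (CLDN4) were above the filter, and both lists differed by -0.26 to -0.05 on average in every diet. The 2 leukocyte markers went opposite ways each time. CD14 was at -0.68 in control, 0.31 in CHL and 0.09 in FO pairs, and LYZ at 0.58, -0.45 and -0.46. The part of these other cells in the differences of the 3 genes was not tested.

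Few other genes of the same families were named by symbol in the deposited tables, which list 12112 of the array's 23999 gene probe sets. Of 19 further matrix metalloproteinases 3 had a probe set named by symbol in the deposited tables. MMP13 (collagenase 3) differed by -0.51 (SE 0.21) in control, -0.07 (SE 0.24) in CHL and 0.01 (SE 0.24) in FO pairs, and MMP1 and MMP3 (an interstitial collagenase and stromelysin 1) lay below the filter. Neither of the tested diets had a difference of MMP13 beyond its SE, beside 0.58 and 1.53 for MMP7. The mean level of MMP13, 5.09, was barely above the filter level of 5.08, so these values cannot show whether it and MMP7 differ.

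Among the inhibitors, TIMP1 differed by -0.47 (SE 0.24) in control pairs, 0.35 (SE 0.28) in CHL and 0.17 (SE 0.28) in FO pairs. TIMP3, which binds to the matrix, differed by 0.40 (SE 0.26), 0.05 (SE 0.30) and 0.54 (SE 0.30). TIMP4, whose mean level of 5.09 was also barely above the filter level, differed by 0.14 (SE 0.29), 0.13 (SE 0.34) and 0.14 (SE 0.34). None passed in CHL or FO pairs (limma adjusted p from 0.6045 for TIMP3 in FO pairs to 0.994), where TIMP2 itself was at -0.03 and 0.44. The 4 other lysyl oxidases had no probe set named by symbol. A search of the array's own descriptions, made after values were seen, found 4 more probe sets. That similar to human lysyl oxidase-like 3 was at 0.32 in control, 0.07 in CHL and 0.24 in FO pairs, that similar to human matrix metalloproteinase 23B at 1.23, -0.10 and 0.69, and that similar to matrix metalloproteinase 9 at 0.21, -0.04 and 0.06. The fourth, weakly similar to TIMP2 and not counted as TIMP2 here, was at -0.18, -0.16 and -0.02 and lay below the filter level. None of those above it passed in the tested diets.

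Over the wider matrix lists, 22 of 77 genes were tested, and 0 of 22 passed in either diet. In CHL pairs 15 of 22 were higher in regenerated cells, beside 54.2% of all probe sets, with a median difference of 0.15 against 0.02 over all. In FO pairs 16 of 22 were higher, beside 49.5% of all, with a median of 0.14 against -0.003. The 22 genes had to be named in the authors' tables of probe sets selected on these data, so all probe sets are an unlike background. By list, 4 of 4 adamalysins (membrane proteases), 3 of 4 genes of the plasminogen system, 4 of 7 cathepsins and cystatin C and 1 of 3 elastic fibre genes were higher in CHL pairs. In FO pairs these counts were 2 of 4, 4 of 4, 5 of 7 and 1 of 3. In the control pairs 1 of the 22 passed, ADAM17 (the TNF-releasing sheddase), at -1.23 (SE 0.20, limma adjusted p = 0.0109), where 0.289% of probe sets passed in all and 0.1% passed upward.

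Among the matrix list genes outside the families of the 3 genes, EMILIN1 had the smallest p in both diets. EMILIN1, a glycoprotein at the surface of elastic fibres, was lower in regenerated cells of 6 of 6 FO animals at -1.09 (SE 0.27, limma adjusted p = 0.223) and of 5 of 6 CHL animals at -0.83 (SE 0.27, adjusted p = 0.652), and it was lower in 8 of 8 control animals at -1.01, where 2.41% of probe sets were lower in every FO pair and 1.69% in every control pair. PLAT (tissue plasminogen activator) was higher in 6 of 6 FO animals at 0.70 (SE 0.23, limma adjusted p = 0.424), and PLAU (urokinase) in 4 of 6 CHL animals at 0.93 (SE 0.40, adjusted p = 0.779). None of these passed the threshold. For CHL against FO, the smallest p among these matrix list genes belonged to ADAM9 and ADAM17 in the difference of effects (0.81 and 0.48). In native cells it belonged to EMILIN1 and ADAM9 (-0.35 and -0.39), and in regenerated cells to PLAT (-0.49). Each had a limma adjusted p of 0.999 or above.

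**Figure D4:**
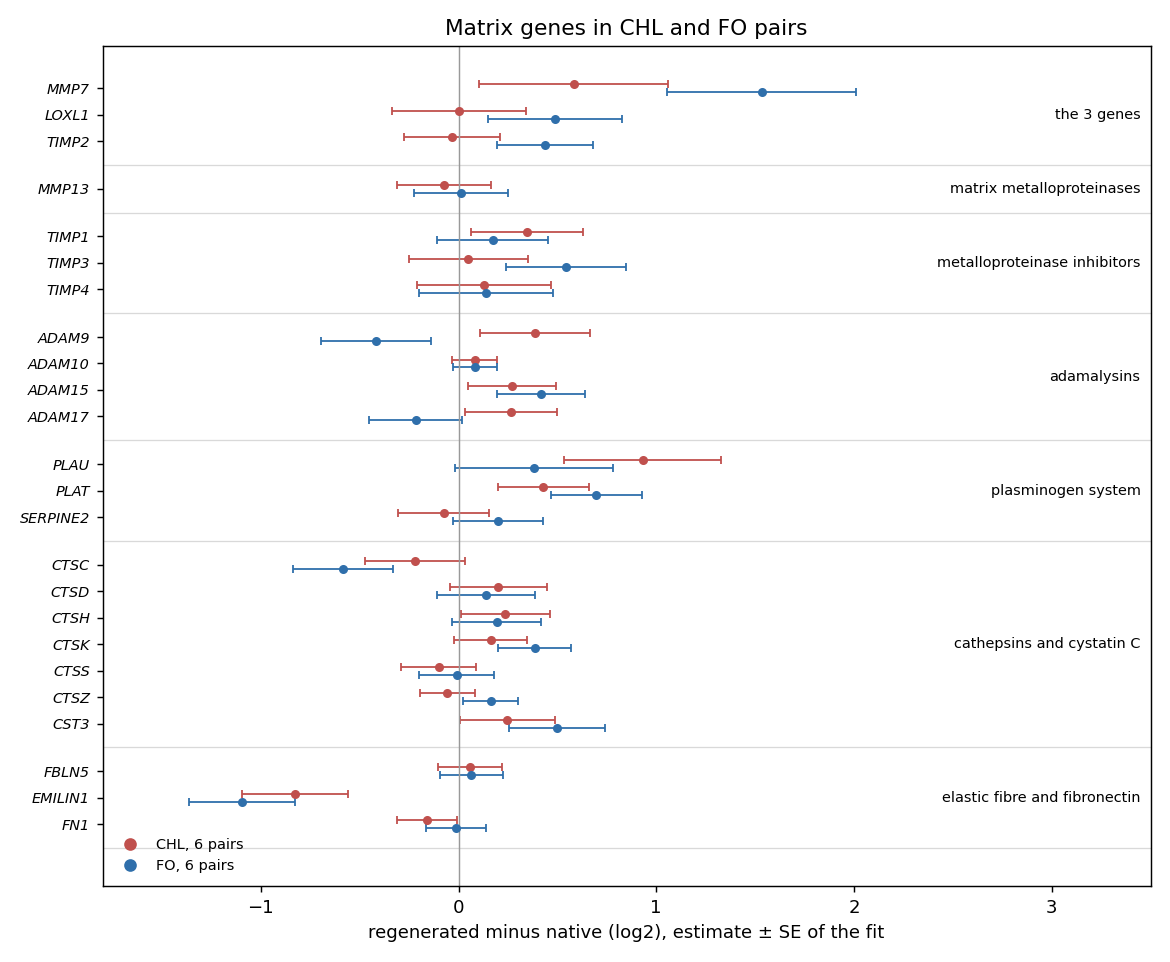
Regenerated minus native difference (log2, estimate with SE of the fit) of MMP7, LOXL1, TIMP2 and other matrix genes tested, in 6 CHL and 6 FO pairs, grouped by list. MMP7 in FO pairs, at 1.53, is the point farthest right and EMILIN1 in FO pairs, at -1.09, the point farthest left, and no gene shown passed the adjusted threshold.

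The genes whose pair differences were most like those of each gene were sought among 2227 genes over the 20 pairs. For MMP7 they were LOC100151993 (r = 0.777), PALMD (palmdelphin, 0.740), PHYH (a peroxisomal hydroxylase, 0.704), THBD (thrombomodulin, 0.695) and EXOSC1 (an RNA exosome subunit, 0.688), and without the 3 uncorrelated pairs r was 0.678 to 0.789. For LOXL1 they were SMAD6 (an inhibitory SMAD, 0.962), GADD45A (a stress-response gene, 0.945), CLU (clusterin, 0.935), ITGAV (integrin alpha V, 0.934) and SPARC (a matrix glycoprotein, 0.933), and r was 0.860 to 0.943 without those pairs. For TIMP2 they were ALOX5AP (0.862), CR956367.2 (0.860), MAGI3 (0.853), LUM (lumican, 0.848) and SDC2 (syndecan 2, 0.844), and r was 0.461 to 0.709 without them. TIMP2 stood at rank 135 in the list of LOXL1, and LOXL1 at rank 186 and TIMP2 at rank 323 in that of MMP7.

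The control animals were not of 1 kind. The labels of 5 of them carry MA numbers, and those of the other 3, like all CHL and FO animals, name the artery. Native MMP7 was 5.51 ± 1.06 (SD, n = 5) in the MA animals, from 4.33 to 7.23, and 7.87 ± 0.57 (n = 3) in the artery-named ones, from 7.29 to 8.44, without overlap. Regenerated MMP7 was 7.61 ± 0.47 (n = 5) and 9.27 ± 0.61 (n = 3), also without overlap. Of all probe sets, 5.85% in native and 4.23% in regenerated control cells were higher in artery-named than in MA animals without overlap. Native TIMP2 was 11.42 ± 0.37 (n = 5), up to 11.91, and 12.41 ± 0.51 (n = 3), from 11.94, again without overlap. Native LOXL1 was 9.72 ± 0.69 (n = 5) and 10.88 ± 0.95 (n = 3), with overlap. The difference within pairs was 2.10 in MA and 1.40 in artery-named animals for MMP7, 1.28 and 0.76 for LOXL1, and 0.81 and 0.38 for TIMP2.

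This split touches every comparison of a diet with controls, since CHL and FO animals are all artery-named, and these comparisons are given as values only. Native cells differed from native control cells by 0.15 in CHL and 0.04 in FO animals for MMP7, by 0.64 and 0.19 for LOXL1, and by 0.44 and 0.50 for TIMP2. For each gene this direction turns with the controls chosen. Native MMP7 at 6.54 in CHL and 6.44 in FO animals lay below the 7.87 of the 3 artery-named controls and above the 5.51 of the 5 MA controls. Native LOXL1 at 10.79 and 10.35 lay between 10.88 and 9.72 of the same controls, and native TIMP2 at 12.23 and 12.29 between 12.41 and 11.42. The regenerated effect in CHL minus that in control pairs was -1.25 for MMP7, -1.08 for LOXL1 and -0.69 for TIMP2, and in FO minus control it was -0.30, -0.59 and -0.21. Against the 3 artery-named control pairs the FO direction turns for MMP7 (1.53 in FO against 1.40) and TIMP2 (0.44 against 0.38) and stays for LOXL1 (0.49 against 0.76), and CHL pairs were lower for each gene (0.58, 0.00 and -0.03). Control animal 6, among these 3, and FO animal 3 had degraded RNA. Control animals 6, 7 and 8 were at 0.25, 2.62 and 1.31 for MMP7 and at 1.60, 0.69 and -0.01 for LOXL1. Without FO animal 3 the FO means were 1.73 and 0.54. Leaving out both degraded pairs reverses the order of FO and control for MMP7 and for LOXL1, so these directions rest on degraded arrays. Label style and animal cannot be told apart here, and the labels do not say what the MA numbers mark.

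The authors' deposited tables hold all 3 genes among their selected probe sets, with fold changes made by several strategies. By a strategy called A here, MMP7 was 5.15-fold up in regenerated control cells and 4.27-fold up in regenerated FO cells in the authors' deposited table for FO. By another, called B here, the authors' deposited table for CHL has MMP7 4.05-fold up in regenerated control cells and 1.83-fold up in regenerated CHL cells. Strategy A gives LOXL1 as 2.14-fold up in control, 1.41-fold up in FO and 1.07-fold up in CHL cells. It gives TIMP2 as 1.57-fold up in control and 1.36-fold up in FO cells. Strategy B gives LOXL1 as 2.10-fold up in control and 1.01-fold up in CHL cells. It gives TIMP2 as 1.496-fold up in control and 1.08-fold down in CHL cells. The authors' log2 differences have LOXL1 higher in native than in regenerated CHL cells, by 0.066, so its direction there depends on the strategy. A further table for FO made by strategy B gives MMP7 as 3.97-fold up in regenerated control and 3.69-fold up in regenerated FO cells. Values of A and B cannot be set side by side to compare diets. For the dim MMP7 the fold depends on the number added to the signal before the logarithm: its mean log2 difference in FO pairs was 2.01 with 1 added, 1.53 with 16 and 1.06 with 64, and in control pairs 2.30, 1.84 and 1.28.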

How the data were processed

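Total RNA of 40 primary cultures was hybridised to Affymetrix porcine arrays, per the labels' protocols. The deposited values are linear intensity signals made with MAS5 per the submitters' processing notes, and their 2% trimmed mean of 500.1 on every array shows that each array was scaled on its own. The authors' deposited tables of selected probe sets hold ratio values (fold changes with a direction) and log2 differences; how they were selected was not used here. Their annotation named the probe sets: 3063 had 1 symbol and 60 several. No genome build is named, so no positions are given, and the number of arrays limits the precision.

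Of 24123 probe sets, 124 Affymetrix controls were left out and those above the 25th percentile of mean log2(signal + 16) were kept, 17999 in all. Differences were fitted with limma 3.58.1 (R 4.3.3) on all 40 arrays with the pair as a block and 1 regenerated effect per diet, and native and regenerated arrays alone for levels, with Benjamini-Hochberg adjustment over all probe sets at 0.05. The fit was tested on simulated data. The design text states that native and regenerated cells of each animal were compared in pairs, and the replicate numbers in the titles give the pairs. The deviations of paired arrays from their group means correlated above 0.1 in 17 of 20 pairs (median 0.514, against -0.0532 for arrays of different pairs) and below 0 in 3, the uncorrelated pairs.

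Exact sign-flip and permutation tests were two-sided, made with scipy 1.17.1, and relations of 10 or more pairs used 100000 permutations, and no p is given for relations that hold control pairs. The 3 genes, the gene lists and the tests were chosen with earlier results of these data known. Named genes were the 3 genes, every measured gene of their families, any list gene that passed, the 2 other list genes of smallest p in each comparison, and the 5 most alike genes of each; 1 gene named by this rule is not reported here. Alternatives were the number added to the signal, quantile normalization, the level filter, a prior trend, the methods' t-test, no block, and leaving out pairs.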

Additional observations from a re-analysis of the deposited data

Results flagged for a closer look

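Of 27 groups of levels and pair differences of the 3 genes, 3 held an animal whose gap to its nearest neighbour was large for the range of the group, where chance gives about 1 in 20 groups. The regenerated culture of CHL animal 1 had the lowest LOXL1 level, 8.54, and its gap took 0.697 of the range of the 6 cultures. The TIMP2 difference of control animal 5 was the highest of 8 at 2.12, with a gap of 0.536 of the range, and that of FO animal 6 was the highest of 6 at 1.75, with a gap of 0.649. Both TIMP2 values belong to pairs whose arrays' deviations correlated below 0, and their smooth muscle marker means differed by 3.18 and 2.22.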

How the results depend on the processing

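Of 450 alternative values of the 15 tested differences of the 3 genes, none passed adjusted p 0.05, 432 kept their direction and 18 turned it. All 18 belong to differences near 0. With 1 added to the signal LOXL1 in CHL pairs was -0.000788 in place of 0.00, without the degraded pairs native TIMP2 (CHL minus FO) was 0.0093, and without the 3 uncorrelated pairs, a setting chosen after seeing the data, regenerated LOXL1 (CHL minus FO) was 0.14. Leaving out 1 animal at a time gave ranges across 0 for LOXL1 (-0.19 to 0.21) and TIMP2 (-0.14 to 0.11) in CHL pairs, native MMP7 (-0.34 to 0.45) and native TIMP2 (-0.17 to 0.060), and regenerated LOXL1 (-0.28 to 0.41). MMP7 in FO pairs stayed between 1.06 and 2.01 over 31 alternatives (adjusted p 0.226 to 0.9995), and the 93 alternative values in control pairs moved by less than 1 SD. Without the replicate block MMP7 in FO pairs kept its difference of 1.53 at an adjusted p of 0.9995.

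Counts of probe sets past the threshold moved more. In control pairs the 52 calls became 20 with 1 added, 156 with 64 added, 22 above the 50th percentile, 16 without degraded pairs, 0 in artery-named animals alone (3 control pairs), 8 with no replicate block, 6 without the uncorrelated pairs and 9 to 2405 without 1 animal, the high count without control animal 8 and the low one without control animal 5. In FO pairs the 7 became 3 with 1 added, 3 above the 50th percentile, 2 without degraded pairs, without the uncorrelated pairs, in artery-named animals alone or with no block, and 2 to 8 without 1 animal. In CHL pairs the 1 became 3 without the uncorrelated pairs and 1 to 4 without 1 animal. The methods' t-test left 0 in each after Benjamini-Hochberg (3320 in control, 902 in FO and 1221 in CHL pairs at unadjusted p under 0.05). The causes were not tested. Over the 18 pairs without degraded RNA the smooth muscle markers had r = 0.877 with TIMP2, 0.827 with LOXL1 and 0.409 with MMP7, and LOXL1 had r = 0.757 with TIMP2; other alternatives for these relations stand beside them above. No gene had a further probe set by symbol or full title, so that alternative gave no value. MMP7 had the lowest mean level of the 3 genes, 7.14 against 10.69 for LOXL1 and 12.26 for TIMP2. How far MAS5 spread at low signal limits its values was not measured.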
